A study of Homo sapiens with 4 samples.

Results

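The ribosomal proteins of the cytosol join the ribosomal RNA in the particles that translate messenger RNA. They were examined here as the protein-coding genes whose symbols begin with RPL followed by a digit or P (large subunit) or with RPS followed by a digit or A (small subunit). Symbols beginning RPS6K or RPS19BP, which name kinases and a binding partner, were left out, and a mean of at least 50 reads over the 4 libraries was required. Of the 58302 genes listed in the deposited tables, 90 carried such a name and 83 reached the minimum, 51 of the large and 32 of the small subunit. Those 83 comprised 77 of the 80 canonical ribosomal proteins and 6 paralog copies (RPL7L1, RPL22L1, RPL26L1, RPL36AL, RPL39L and RPS27L). The other 3 canonical proteins are made from genes whose symbols differ, FAU and RACK1 among them. Of the 7 genes under the minimum, RPL3L had a mean of 24.2 reads and the others had between 0 and 5 reads in a library.

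The libraries came from the human lung cancer line NCI-H838 (non-small-cell), in a MIB1-iKO derivative that carries a guide RNA against MIB1, a Cas9 gene switched on by doxycycline (dox) and a puromycin-resistance gene, all inserted with a piggyBac transposon. MIB1 encodes an E3 ubiquitin ligase, and the study asked how its loss changes BMP and TGF-β signaling. All 4 libraries carried the construct and were taken at day 3. No dox replicates 1 and 2 received no doxycycline, whereas dox replicates 1 and 2 received 0.5 μg/mL. The MIB1 lines were grown from single cells, and which clone gave these libraries is not given in the sources used here. No dox-treated library with another guide was analysed here, so loss of MIB1 cannot be told apart from dox or Cas9 alone. The study describes the replicates of its basal dox experiment as biological, and the labels do not say how they were separated, so p-values measure the spread between these samples.

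The targeted gene checked the labels, with 598 and 588 MIB1 reads in no dox against 90 and 59 in dox (log2 fold change -2.58, limma adjusted p = 0.000375). Totals per library ranged from 15943025 to 24398411 reads and were lower in both dox libraries. Of 6 lung lineage markers, NKX2-1, SFTPA1, SFTPB and SCGB1A1 were listed at 0, and the list summed to 0.285 to 0.552 RPKM (reads scaled by gene length and sequencing depth, as deposited). The 6 epithelial markers, with KRT19 listed at 0, summed to 83.3 and 91.8 RPKM in no dox and to 67.6 and 72.7 RPKM in dox. Of these, KRT18 and KRT8 had log2 fold changes of -0.41 and -0.34 (limma adjusted p = 0.339 and 0.362). The other 3 tested went the other way, with EPCAM at 0.13, CDH1 at 0.25 and CLDN4 at 0.56 (limma adjusted p = 0.829, 0.705 and 0.663). CLDN4 had only 25 to 34 reads per library. The part of these changes in the values that follow was not tested. The immune, endothelial and fibroblast lists each stayed below 1 RPKM. The lineage markers were thus listed at 0 or near 0 in a line labelled lung. A listed 0 need not mean that a gene is silent, and its cause was not tested.

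A ribosome has a large subunit, which forms peptide bonds, and a small subunit, which reads the messenger RNA. Cells make the proteins of both in near-equal amounts, and growing cancer cells spend much of their transcription on them. Most of these transcripts begin with a terminal oligopyrimidine (TOP) motif, a cytosine followed by a run of pyrimidines at the very start of the RNA. The motif lets the mTORC1 kinase complex, through the RNA-binding protein LARP1, set how strongly the transcripts are translated and stored. A change in that control need not alter RNA levels, which are what RNA-seq measures.

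The start sites were read first, because the rule used only names. RefSeq start regions (GRCh38.p14) were at hand for 67 of the 83 genes. A cytosine at the first base followed by 4 more pyrimidines stood at the annotated start of 47 of those 67 genes, or 70.1%. The same run stood at the start of 5.14% of all 27305 genes with a start region and of 7.25% of the 10761 among them that were tested for expression. Large and small subunit genes were alike in this, at 69.0% and 72.0%. With an offset of up to 3 bases allowed, 79.1% of the 67 genes had the run, against 16% of all genes. Annotated starts were not measured in these cells.

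The sequences that follow are the starts of genes with the highest fitted changes after dox, of RPS21, the gene with the highest level, and of the RPL22 and RPL26 pairs, which compare a gene with its copy. Each line has 10 bases before the annotated start and 20 from it on, 5′ to 3′ on the gene's strand, from RefSeq on GRCh38.p14. Capitals mark the pyrimidine run, and a line with no capitals has no such run.
RPS18, chr6:33272065-33272094, plus strand: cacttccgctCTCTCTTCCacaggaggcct
RPL12, chr9:127451387-127451416, minus strand: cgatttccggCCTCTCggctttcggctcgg
RPL13A, chr19:49487598-49487627, plus strand: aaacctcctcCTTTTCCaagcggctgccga
RPS27, chr1:153990752-153990781, plus strand: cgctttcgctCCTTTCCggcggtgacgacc
RPS21, chr20:62387093-62387122, plus strand: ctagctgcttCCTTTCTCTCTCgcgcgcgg
RPL22, chr1:6199576-6199605, minus strand: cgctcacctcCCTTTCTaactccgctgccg
RPL22L1, chr3:170870176-170870205, minus strand: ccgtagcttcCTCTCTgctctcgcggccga
RPL26, chr17:8383174-8383203, minus strand: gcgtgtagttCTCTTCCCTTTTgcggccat
RPL26L1, chr5:172958719-172958748, plus strand: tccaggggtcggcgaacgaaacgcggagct

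The next 4 lines are genes among the 6 with the lowest fitted changes, and none of the 4 had the run as defined. RPL5, also among those 6, has no start region at hand. Genes not printed went the other way: RPL3 had no run and a log2 fold change of 0.20. RPL36A and RPS6 had the run and values of -0.07 and -0.02. RPS7 and RPL36AL start with only 3 pyrimidines before a guanine, but more pyrimidines stand directly before both annotated starts. In RPS7 a cytosine 3 bases before the start is followed by 4 more pyrimidines. Its lack of the run thus depends on the exact annotated start. RPL9 and RPS26 have their pyrimidines further in.
RPL9, chr4:39458903-39458932, minus strand: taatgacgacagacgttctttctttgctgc
RPS26, chr12:56041908-56041937, plus strand: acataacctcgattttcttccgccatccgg
RPL36AL, chr14:49620607-49620636, minus strand: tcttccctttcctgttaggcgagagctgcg
RPS7, chr2:3575250-3575279, plus strand: cgccctcctcctcgcgctgtttccgcctct

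Of the 5 paralog copies with a start region, only RPL22L1 had the run. The run stood at 9 of 10 genes on a list of elongation factors and other known TOP transcripts and at 6 of 69 genes for mitochondrial ribosomal proteins (8.70%). Within the 300 bases from 250 before the start to 50 after it, on either strand, CCGGAAG (the core of ETS family sites) was found in 35.8% of the 67 genes and 12.2% of all genes. AAGATGGC (the YY1 core) was found in 10.4% and 3.52%, GGGCGG (the SP1 GC box) in 58.2% and 48.3%, and TATAAA (the TATA box) in 8.96% and 14.0%. Among the genes tested for expression the shares were 22.6% for CCGGAAG, 6.40% for AAGATGGC, 76.9% for GGGCGG and 8.22% for TATAAA, so that the TATA box was about as frequent in the ribosomal protein genes as in other expressed genes. These are matches of letters, not measured binding.

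The ribosomal protein genes spanned a wide range of levels in these cells, which per unit of length ran from a mean of 4.18 RPKM for RPL7 to 2280 RPKM for RPS21 with a median of 105. RPS21, a small subunit protein, had 2370 and 1960 RPKM without dox against 2820 and 1970 RPKM with dox. RPL8, which lies by the peptidyl transferase center, had 2060 and 1920 RPKM without dox against 2470 and 2010 RPKM with dox. RPL27 had 1960 and 1590 RPKM without dox against 2270 and 1490 RPKM with dox. Dox replicate 1 was the highest library for all 3 genes, and the groups overlapped in each. The fitted log2 fold changes were 0.08 ± 0.08 (SE) for RPS21, 0.17 ± 0.08 for RPL8 and -0.01 ± 0.09 for RPL27, with limma adjusted p = 0.819, 0.533 and 0.988, and the value of RPL27 turned to between 0.06 and 0.09 under every other scaling tried.

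**Figure D1:**
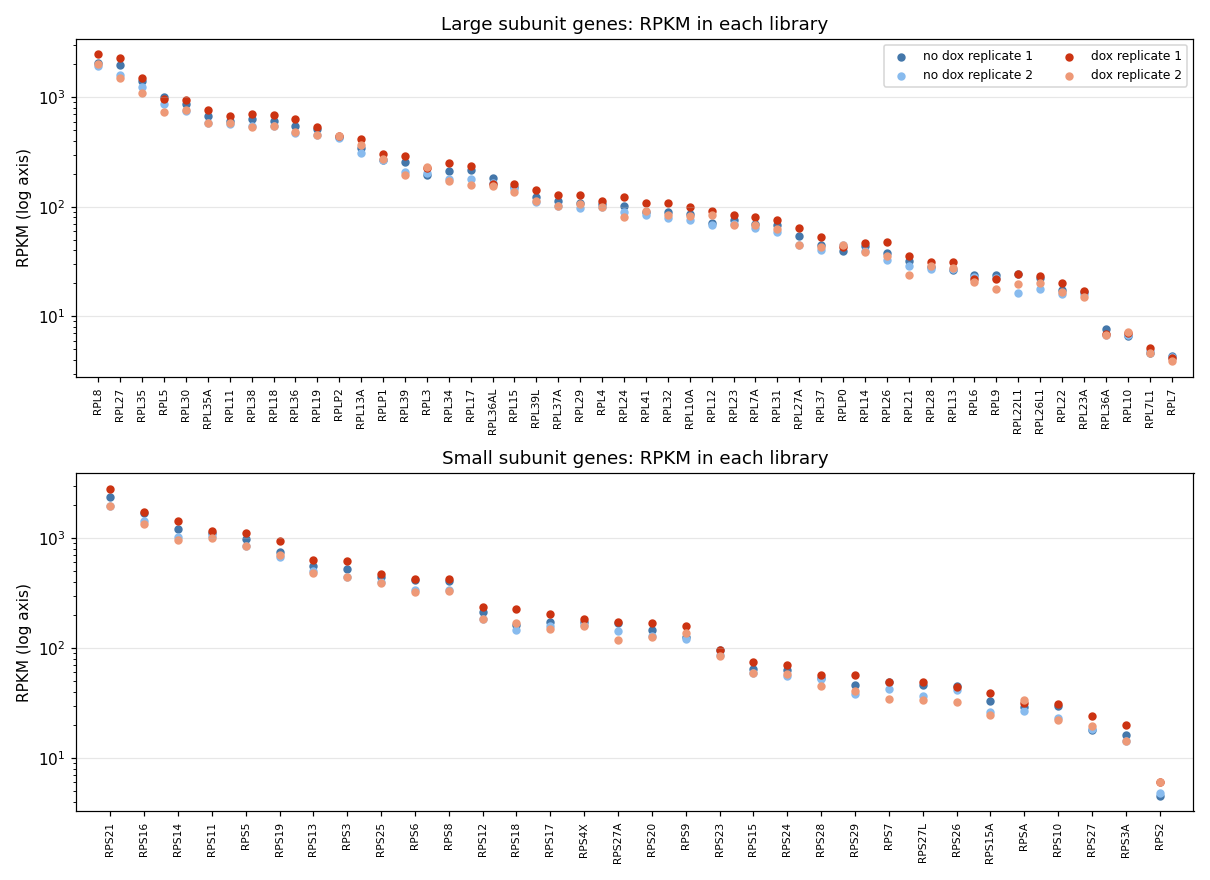
Deposited RPKM on a log axis for the large subunit genes (top) and small subunit genes (bottom), ordered by mean level and with 1 large subunit gene not shown, with 1 point per library. Levels ran from 4.18 RPKM for RPL7 to 2280 RPKM for RPS21, and dox replicate 1 was the highest library for 69 of the 83 genes.

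Several genes at the low end of the range had many annotated pseudogenes. RPL7 had 4.39 and 4.30 RPKM without dox against 4.15 and 3.88 RPKM with dox, and RPL7L1, RPS2, RPL10 and RPL36A had means of 4.83, 5.37, 6.90 and 7.0 RPKM. Of these, RPS2, RPL10 and RPL36A had 25, 19 and 52 pseudogenes. RPL7L1, a paralog copy, had 12, no more than the median of the 83 genes. The annotation lists 1604 pseudogenes named for ribosomal proteins, among them 133 for RPL21, 91 for RPL23A and 61 for RPL7. Across the 77 canonical genes, the number of pseudogenes and the log2 mean RPKM had a Pearson r of -0.43 and a Spearman rho of -0.46. The points are genes of the same 4 libraries, so this is a description. The median level was 66.4 RPKM for the 37 genes with more than 14 pseudogenes and 195 RPKM for the 40 genes with 14 or fewer. For RPL10 the genes counted as its pseudogenes held 3302 reads against 1501 for the gene itself, and for RPS2 1128 against 482. How reads that match several places were counted is not given in the sources used here, so a low level of such a gene is uncertain, and the part of shared reads in these levels was not tested. Of the 83 genes, 34 also overlap a gene on the other strand, and whether counting used strand is not known.

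**Figure D2:**
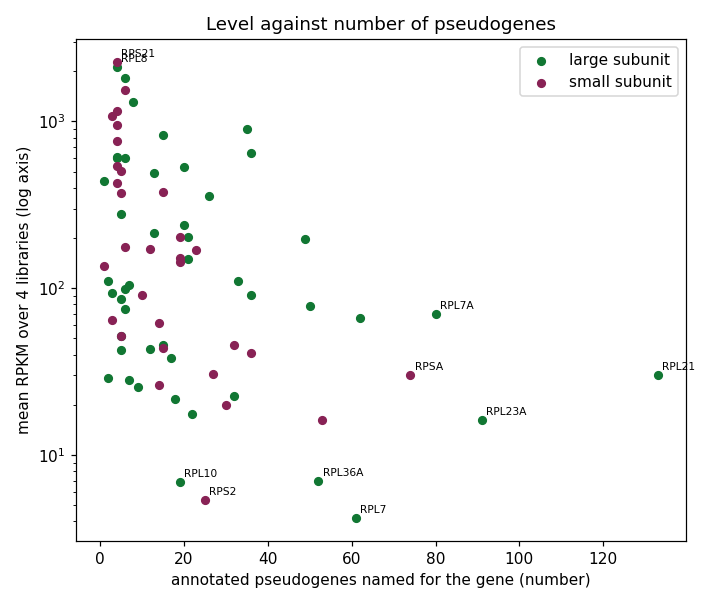
Mean RPKM over 4 libraries (log axis) against the number of annotated pseudogenes named for each of 77 canonical ribosomal protein genes, by subunit. RPS21 and RPL8, with 4 pseudogenes each, sit at the top left, and RPL7, with 61, sits lowest at 4.18 RPKM.

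No ribosomal protein gene passed the main limma test after dox. With both an adjusted p no higher than 0.05 and a 2-fold change required, limma called 0 of 83, where 0.0371% of the 16181 genes tested were called. At the adjusted p alone 0 of 83 were called, against 0.068% of all genes, and edgeR and DESeq2 called 0 as well. The lowest adjusted p was 0.377, for RPS18. An unadjusted p under 0.05 was reached by 5 genes (6.02%), all higher with dox, where 4.68% of all genes were higher, 4.59% lower and 9.28% passed in either direction. The same count was 2 with edgeR and 4 with DESeq2. The 5 genes were RPS18, RPL13A, RPL12, RPS9 and RPL8, of which RPS9 is named here after its value was seen. RPS9, a small subunit protein, had 126 and 121 RPKM without dox against 158 and 136 RPKM with dox, with a fitted log2 change of 0.26 ± 0.10 (adjusted p = 0.444). These fits held no term for replicate number, and the labels do not say whether that number pairs the groups. With it added to the limma fit as a block, 14 of 83 genes (16.9%) passed at the adjusted p alone, 13 of them higher. Of all genes tested, 7.13% passed in that fit.

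The fitted changes were small and mostly above 0. The log2 fold change was above 0 for 65 of 83 genes (78.3%), 41 of 51 of the large and 24 of 32 of the small subunit, where 49.9% of all genes tested were above 0. Its median was 0.09 over the 83 genes, a ratio of 1.07, and 0 over all genes. The values ran from -0.21 to 0.39 with an SD of 0.12, against 0.35 over all genes tested and 0.24 over those with a mean count of at least 50. Only 3 of the 83 exceeded 0.3 in size. The median SE was 0.111, larger than the median change. The highest upper end of a 95% confidence interval was 0.83, for RPS2, and the lowest lower end was -0.53, for RPL9, so that no gene's own interval reached a 2-fold change.

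A single library carried much of this shift. Without dox replicate 1 the median fell to 0.025 with 46 of 83 genes above 0, and without dox replicate 2 it rose to 0.161 with 75 above 0. The medians were 0.098 and 0.063 without no dox replicates 1 and 2. Of the genes' RPKM values, dox lay wholly above no dox for 15 of 83 (18.1%), the same as the 18.1% of all genes tested, and wholly below for 4 of 83 (4.82%), where 20.5% of all genes did. Those 4 were RPL36AL, RPL6, RPL7 and RPL9.

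**Figure D3:**
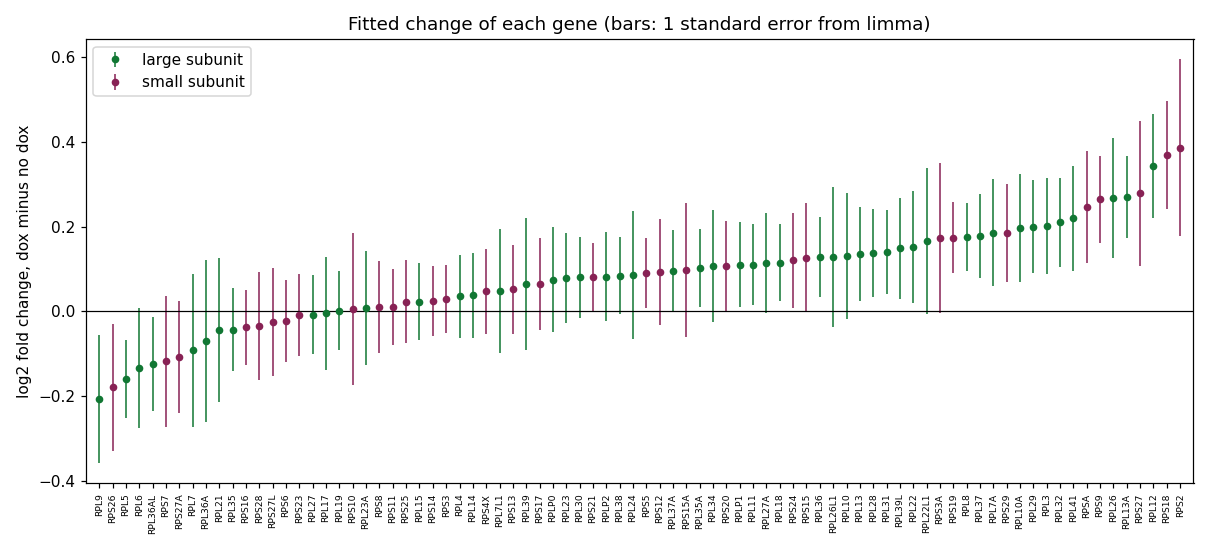
Fitted log2 fold change, dox minus no dox, of the ribosomal protein genes in order, with bars of 1 standard error from limma and 1 of the 83 genes not shown. The values ran from -0.21 for RPL9 to 0.39 for RPS2, and 65 of the 83 lay above 0.

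The genes at the top of the order were the following. RPS18 (ENSG00000231500, chr6:33272075-33276511, plus strand), a protein of the small subunit's head, had 162 and 146 RPKM without dox against 226 and 169 RPKM with dox. Both dox libraries lay above both no dox libraries, and dox replicate 1 stood well above dox replicate 2. The means were 154 ± 11.1 and 198 ± 40.5 RPKM (SD, n = 2), and the log2 fold change was 0.37 ± 0.13 (limma adjusted p = 0.377). It ranged from 0.20 to 0.54 when libraries were left out in turn.

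RPL12 (ENSG00000197958, chr9:127447674-127451406, minus strand), at the base of the stalk that recruits translation factors, had 71.6 and 68.2 RPKM without dox against 90.8 and 83.6 RPKM with dox. Here the replicates were close and the groups apart, at 69.9 ± 2.40 and 87.2 ± 5.10 RPKM (SD, n = 2). The log2 fold change of 0.34 ± 0.12 had a limma adjusted p of 0.398. RPL13A (ENSG00000142541, chr19:49487510-49493057, plus strand), a large subunit protein also known for a role outside the ribosome in silencing inflammatory transcripts, had 343 and 310 RPKM without dox against 414 and 364 RPKM with dox. Its groups did not overlap either, and its log2 fold change was 0.27 ± 0.10 (limma adjusted p = 0.390).

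RPS2 (ENSG00000140988, chr16:1962058-1964841, minus strand), which lines the messenger RNA entry channel, had the highest log2 fold change, 0.39 ± 0.21 (limma adjusted p = 0.611). It rested on few reads, 124 and 122 in no dox against 107 and 129 in dox, or 4.54 and 4.79 against 6.04 and 6.12 RPKM. RPS27, a zinc finger protein of the small subunit, had 17.9 and 18.2 RPKM without dox against 24 and 19.5 RPKM with dox. The groups did not overlap, but dox replicate 2 stood close to no dox. Its log2 fold change was 0.28 ± 0.17 (limma adjusted p = 0.658), with a value of 0.13 at the lowest when a library was left out.

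At the bottom of the order the values were no firmer. RPL9 (ENSG00000163682, chr4:39452587-39458931, minus strand), a large subunit protein near the factor-binding site, had 24.1 and 22.2 RPKM without dox against 22.0 and 17.8 RPKM with dox. The lower no dox and the higher dox library were nearly level. Its log2 fold change was -0.21 ± 0.15 (limma adjusted p = 0.721), and it ran from -0.36 when dox replicate 1 was left out to -0.14 for no dox replicate 1 and -0.05 for dox replicate 2. RPS26 (ENSG00000197728, chr12:56041351-56044697, plus strand), at the messenger RNA exit and one of the genes mutated in Diamond-Blackfan anemia, had 45.5 and 41.5 RPKM without dox against 44.5 and 32.0 RPKM with dox. Only dox replicate 2 was low, and the log2 fold change of -0.18 ± 0.15 (limma adjusted p = 0.759) turned to 0.05 without it. RPL6 had 24.1 and 23.1 RPKM without dox against 22.1 and 20.5 RPKM with dox, for a fitted log2 change of -0.13 ± 0.14 (adjusted p = 0.822) that was -0.08 without dox replicate 2. RPS7, which also takes part in making the small subunit's RNA, had 49.3 and 42.1 RPKM without dox against 49.0 and 34.7 RPKM with dox, so that the groups overlapped. Its log2 fold change of -0.12 ± 0.15 (limma adjusted p = 0.866) turned to 0.12 without dox replicate 2 and to 0.06 with pseudogene reads added.

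RPL5 and RPL11 join the 5S RNA in a particle that is built into the large subunit and, when assembly fails, binds the p53 regulator MDM2. RPL5 had 1010 and 860 RPKM without dox against 971 and 738 RPKM with dox, for a fitted log2 change of -0.16 ± 0.09 (adjusted p = 0.631). RPL11 had 613 and 571 RPKM without dox against 671 and 587 RPKM with dox, for a fitted log2 change of 0.11 ± 0.10 (adjusted p = 0.774). The fitted values of the partners had opposite signs, with groups that overlapped in both, and that of RPL5 was -0.08 without dox replicate 2. On the list of this particle and the p53 axis, 0 of 4 genes passed in either direction, with CDKN1A, the cell-cycle inhibitor p21, at a log2 fold change of 0.16 and MDM2 at -0.17.

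The stalk proteins recruit elongation factors. RPLP0, the stalk's anchor, had 39.9 and 45.3 RPKM without dox against 42.6 and 44.7 RPKM with dox. RPLP1 had 269 and 265 RPKM without dox against 304 and 272 RPKM with dox, and RPLP2 had 434 and 421 against 447 and 445 RPKM. The groups overlapped for RPLP0 and were apart, if narrowly, for RPLP1 and RPLP2. The replicates of RPLP2 were close in both groups, while those of RPLP0 differed by 0.18 on the log2 scale without dox. The log2 fold changes were 0.07 ± 0.12, 0.11 ± 0.10 and 0.08 ± 0.10 in that order, with limma adjusted p of 0.900, 0.782 and 0.862. RPLP0, which serves as a reference gene in many assays, had group means of 42.6 ± 3.85 RPKM in no dox and 43.6 ± 1.51 RPKM in dox (SD, n = 2).

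Proteins known for more than structure gave the same picture. RPS6, the substrate of the S6 kinases that act below mTORC1, had 416 and 340 RPKM without dox against 427 and 322 RPKM with dox, for a fitted log2 change of -0.02 ± 0.10 (adjusted p = 0.965). RPS3, in the messenger RNA entry channel, had 523 and 443 RPKM without dox against 616 and 447 RPKM with dox, for a fitted log2 change of 0.03 ± 0.08 (adjusted p = 0.944). The mean RPKM of RPS3 with dox was 1.1 times that without dox, a larger change than the fitted one. RPS19, the gene most often mutated in Diamond-Blackfan anemia, had 751 and 666 RPKM without dox against 942 and 705 RPKM with dox, for a fitted log2 change of 0.17 ± 0.08 (adjusted p = 0.547). In these 3 genes replicate 1 was above replicate 2 in both groups, and the groups overlapped. RPSA, also studied as a laminin receptor, had 29.2 and 26.9 RPKM without dox against 31.5 and 33.7 RPKM with dox, and here dox replicate 2 was the higher. Its log2 fold change was 0.25 ± 0.13 (limma adjusted p = 0.605). RPS27A, which is made as a fusion with ubiquitin, had 169 and 142 RPKM without dox against 174 and 118 RPKM with dox, with a fitted log2 change of -0.11 ± 0.13 (adjusted p = 0.856) that turned to 0.11 without dox replicate 2. RPL3, near the peptidyl transferase center, had 195 and 205 RPKM without dox against 228 and 229 RPKM with dox. The groups were apart on this scale, and the fitted log2 change of 0.20 ± 0.11 (adjusted p = 0.623) moved to 0.09 without no dox replicate 1, 0.10 without dox replicate 2 and 0.31 without no dox replicate 2. RPL10, which joins the large subunit late in its assembly, had 6.56 and 6.73 RPKM without dox against 7.06 and 7.25 RPKM with dox, for a fitted log2 change of 0.13 ± 0.15 (adjusted p = 0.835).

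The large and small subunits did not separate. The median log2 fold change was 0.11 over the large and 0.06 over the small subunit genes, a difference of 0.05 that was 0.02 with edgeR, DESeq2 and the RPKM values. Without dox replicate 1 the medians were 0.03 and -0.02, and without dox replicate 2 they were 0.16 in both. Summed reads of large over small subunit genes had a ratio of 1.03 and 1.06 without dox and 1.01 and 1.08 with dox, so the dox libraries lay on either side of the no dox libraries. On the RPKM scale the ratios were 1.21, 1.24, 1.20 and 1.25 in the same order.

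As a whole, the 83 genes held 3.61% and 3.38% of all reads without dox and 4.06% and 3.46% with dox. The means were 3.50% ± 0.157 and 3.76% ± 0.422 (SD, n = 2), and the difference was not larger than the spread (two-sided exact permutation test p = 0.667, where 0.33 is the smallest this design allows). The share was high in dox replicate 1 only, with dox replicate 2 between the no dox libraries. Leaving out libraries in turn moved the ratio of dox to no dox from 1.08 to between 0.99 and 1.16. The 10 genes with the most reads held 49.1% to 51.4% of the ribosomal protein reads in each library. In bulk RNA a lower share of cells with much of a transcript and less of it per cell cannot be told apart.

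Replicates differed in a regular way. Replicate 1 was above replicate 2 in RPKM in both groups for 74 of 83 genes (89.2%), where 36.1% of all genes tested were. Within dox this held for 78 of 83 (94.0%, against 54.3% of all genes) and within no dox for 75 of 83 (90.4%, against 53.4%). Dox replicate 1 exceeded dox replicate 2 by a median of 0.32 on the log2 scale, 0.27 for the large and 0.41 for the small subunit, and no dox replicate 1 exceeded no dox replicate 2 by 0.16. Over all genes tested the medians were 0.03 and 0.02. Both gaps were larger than the median fitted change of 0.09. In RPKM, dox replicate 1 was the highest library for 69 of the 83 genes, while dox replicate 2 was the lowest for 42 and no dox replicate 2 for 34. On the quantile-normalized scale of the fit, dox replicate 1 was the highest for 59, and the lowest was no dox replicate 2 for 35, dox replicate 2 for 26 and no dox replicate 1 for 20. The total reads of dox replicate 1 were the smallest of the 4 libraries, and the part of depth in these values was not tested.

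**Figure D4:**
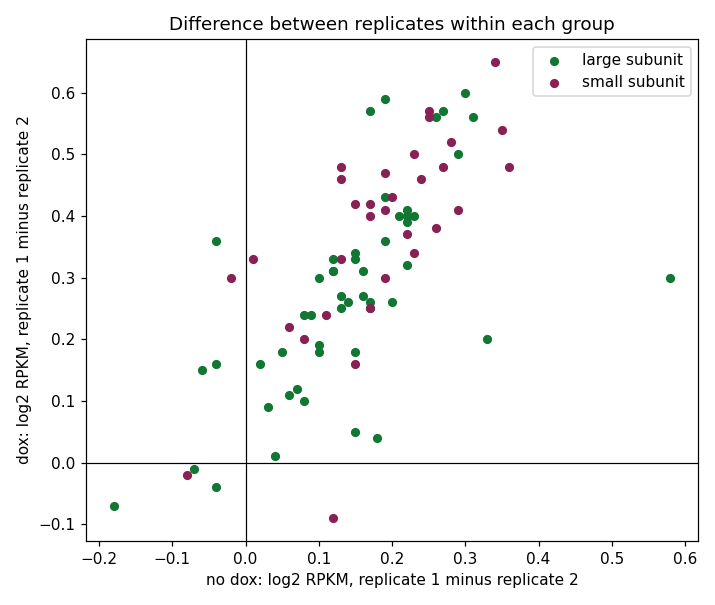
Log2 RPKM of replicate 1 minus replicate 2 in no dox (horizontal) and dox (vertical) for each of the 83 genes, by subunit. In all, 74 genes lie in the upper right, with replicate 1 higher in both groups, and the median gap was 0.32 in dox and 0.16 in no dox.

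The paralog copies had levels of their own, and their reads may be shared with the genes they resemble. RPL36AL exceeded RPL36A by 24.2 and 24.6 times in RPKM without dox and by 23.4 and 23.2 times with dox. RPL36AL itself had 185 and 166 RPKM without dox against 161 and 156 RPKM with dox, for a fitted log2 change of -0.12 ± 0.11 (adjusted p = 0.778), and RPL36A had 7.65 and 6.76 against 6.87 and 6.70 RPKM. RPS27L, a p53-responsive copy, stood at 2.57 and 1.99 times RPS27 without dox and at 2.03 and 1.72 times with dox. The ratio of RPL22L1 to RPL22 was 1.38 and 1.01 without dox and 1.21 and 1.19 with dox, so the dox libraries lay inside the no dox range. Of the genes themselves, RPL22 had 17.6 and 16.1 RPKM without dox against 20.1 and 16.7 RPKM with dox, and overlapped between groups. RPL39, in the exit tunnel for the new protein, had 258 and 208 against 290 and 197 RPKM, and RPL26, at that tunnel's mouth, 37.6 and 32.5 against 47.4 and 35.9 RPKM. Both were highest in dox replicate 1. RPL39L had 0.471 and 0.530 times the RPKM of RPL39 without dox and 0.492 and 0.577 times with dox. RPL26L1 had 0.596 and 0.550 times that of RPL26 without dox and 0.491 and 0.563 times with dox. RPL7L1 had 1.06 and 1.13 times that of RPL7 without dox and 1.24 and 1.20 times with dox, and both genes were near the low end of the range. The groups were apart in this ratio for RPL7L1 (higher with dox) and RPL36AL (lower with dox) and overlapped for the other 4 pairs. How many pairs would be apart by chance was not tested. The direction for RPL7L1 depended on how reads were assigned. Its log2 fold change was 0.048 against -0.092 for RPL7, but 0.038 against 0.13 with pseudogene reads added to their gene. RPL36AL stayed below RPL36A with those reads added, at -0.123 against 0.231. None of the 6 copies was called, their median log2 fold change was 0.09, and the value of RPS27L, -0.03, turned to 0.006 with DESeq2.

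Genes with and without the pyrimidine run at the start had overlapping changes. The median log2 fold change was 0.11 over the 47 genes with the run (40 above 0, from -0.11 to 0.37) and 0.01 over the 20 without it (11 above 0, from -0.21 to 0.21). It was 0.09 over the 16 genes with no start region at hand, which include RPS2 and RPL5. None of these genes passed the test, and the difference between the medians was not tested.

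Of the ribosomal proteins under other names, 0 of 3 genes passed the test. FAU, a fusion of a ubiquitin-like protein and RPS30, had 727 and 650 RPKM without dox against 782 and 577 RPKM with dox, and a log2 fold change of -0.04. RACK1, the scaffold protein on the small subunit's head, was at -0.01. On the list of elongation factors and other TOP transcripts, 0 of 15 tested genes passed in either direction, with a median log2 fold change of 0.04. It ran from EEF1A1, the elongation factor that delivers transfer RNA, at 0.26 to HNRNPA1 at -0.16, and EEF1G was listed at 0 in each library and could not be tested. EEF1A1 stood at 7.43 to 8.97 RPKM and HNRNPA1 at 2.8 to 3.48 RPKM. The part of shared reads in these levels was not tested. Of 13 noncoding genes whose introns hold small nucleolar RNAs, which often have TOP starts too, 0 passed. Their median was 0.12, with GAS5 at 0.29 and SNHG12 at -0.35.

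The genes that make ribosomes did not pass the test either. Over all 10 lists, which hold 221 tested genes with the mitochondrial list included, limma, edgeR and DESeq2 called 0 at an adjusted p of 0.05, and 12 genes had an unadjusted limma p under 0.05, of which 11 were lower with dox. Those 12 are 5.43% of the lists' genes and the 11 are 4.98%, where 9.28% and 4.59% of all genes tested were. Pooled, the total was thus below the background and the lower genes near it, but the lists differed. The count was 4 of 34 (11.8%) for large subunit assembly and 2 of 32 (6.25%) for small nucleolar particles and small subunit assembly. It was 3 of 13 (23.1%) for chaperones and importins and 1 of 15 (6.67%) for RNA polymerase I. In each of these lists 0 of the counted genes were higher. The mitochondrial list had 2 of 78 (2.56%), 1 of them higher, and the other lists had 0. GRWD1, a chaperone of RPL3, had 19.6 and 20 RPKM without dox and 14.6 in both dox libraries, for a fitted log2 change of -0.41 ± 0.11 (adjusted p = 0.286). HEATR3, which carries RPL5 into the nucleus, had 8.21 and 7.98 RPKM without dox against 5.97 and 5.44 RPKM with dox, for a fitted log2 change of -0.49 ± 0.14 (adjusted p = 0.306). In both, the groups were apart by more than the replicates differed. They belong to a list of 13 chaperones and importins of ribosomal proteins whose median was 0.01 and whose highest value was 0.18, for TNPO1.

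Among 34 factors of large subunit assembly, 0 passed, and the median was -0.02. RRS1, which helps place the 5S particle, had 5.51 and 5.60 RPKM without dox against 4.0 and 3.91 RPKM with dox, the lowest log2 fold change of the list at -0.48 ± 0.20 (limma adjusted p = 0.466), and NOP53 had the highest at 0.27. Among 32 factors of small nucleolar particles and small subunit assembly the median was -0.02. NOP56, a core protein of the box C/D particles that guide RNA methylation, had 57.6 and 58.0 RPKM without dox against 46.1 and 45.2 RPKM with dox, for a fitted log2 change of -0.31 ± 0.11 (adjusted p = 0.389), and RIOK1 was the highest at 0.24. The RNA polymerase I list of 15 genes had a median of 0.01, from POLR1G at -0.51 to POLR1A at 0.30. The 14 regulators of the mTORC1, MYC and LARP1 axis had a median of -0.08, from TSC1 at -0.27 to MTOR at 0.20, with MYC at 0.08 and LARP1 at 0.15.

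Mitochondrial ribosomal proteins, which serve a separate ribosome, had a median log2 fold change of -0.02 over 78 genes, of which 33 were above 0 and 0 passed, from MRPS18C at -0.34 to MRPL44 at 0.30. They held 1.85% and 1.73% of reads without dox and 1.87% and 1.66% with dox. The 183 pseudogenes named for ribosomal proteins that were tested had a median of 0.22 with 148 above 0. An unadjusted p under 0.05 was reached by 24 of them (13.1%), all higher, where 4.68% of all genes tested were, and an adjusted p of 0.05 by 0. Their median deviation from each gene's mean was 0.25 in dox replicate 1 and -0.003 in dox replicate 2, against 0.10 and -0.02 for the large and 0.15 and -0.05 for the small subunit genes. The pseudogenes were thus high in the same library as the genes.

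**Figure D5:**
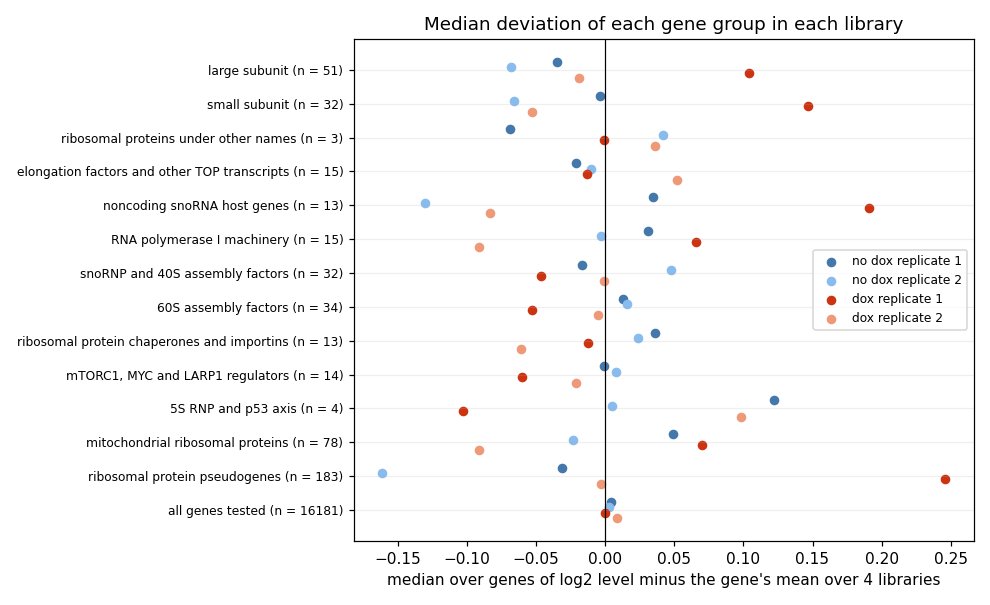
Median over each group's genes of the log2 level in a library minus the gene's own mean over 4 libraries, with 1 point per library. Dox replicate 1 stands apart for the large subunit (0.10), the small subunit (0.15) and the pseudogenes (0.25), and it stands as far out for the noncoding snoRNA host genes (0.19), while all genes tested sit at 0.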

How the data were processed

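RNA-seq was performed on 4 libraries. The authors removed ribosomal RNA reads, aligned the rest to GRCh38 with GSNAP, allowing 2 mismatches per read, and counted reads over exons. The deposited counts are whole reads per gene, and the deposited RPKM values are reads per length and depth with a further factor per library by the authors. Relative to no dox replicate 1 that scale was 0.932, 0.649 and 0.771, where totals stood at 0.869, 0.653 and 0.699. The methods name a low-input kit (Smart-Seq V4 with Nextera XT) and a stranded kit (Truseq Stranded mRNA), and which of them was used here, the strand setting and the handling of multiply matching reads are not given in the sources used here. Symbols came from GENCODE release 44 (57532 of 58302 identifiers).

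Counts were filtered with filterByExpr, quantile-normalized, weighted with voom and compared with limma 3.58.1 (R 4.3.3), after the study's methods, with Benjamini-Hochberg adjustment over 16181 genes. Alternatives used edgeR 4.0.16 and DESeq2 1.42.0, and only the main limma fit was tested on simulated data. Named genes are the 6 highest and 6 lowest fold changes, the 3 highest levels, the 6 paralog pairs and members with well-known roles. For the lists, the highest and lowest genes are named, and others were named after their values were seen. Results for some items are not reported here. The members and lists were chosen with earlier results of these data known. Depth was 15943025 to 24398411 reads, and counting error is the only error such totals describe.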

Additional observations from a re-analysis of the deposited data

How the results depend on the processing

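The ribosomal protein genes called numbered 0 under each of the 11 alternatives with a test, and the median log2 fold change stayed between 0.078 and 0.109 in them (0.025 to 0.161 with a library left out). Leaving out a library leaves a lone sample that is assumed to vary like the other group. The difference between the subunits ran from 0.018 to 0.055 in them and from -0.007 to 0.049 with a library left out. All genes called fell from 6 to 0 without a filter and with log2(RPKM + 0.1) or log2(RPKM + 1). The labels do not say whether the replicate numbers pair the groups (same-numbered deviations correlated at 0.134 over 2 pairs). With the replicate block, 78 genes were called, and at the adjusted p alone 14 of the 83 (16.9%, 13 higher and RPL5 lower) where 1154 genes (7.13%) passed, as did 20 genes of the pathway lists.

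RPL27 was 0.083 with edgeR, 0.09 with DESeq2, 0.067 with voom and TMM, 0.071 with library size only and 0.057 with either RPKM fit, and RPS27L was 0.006 with DESeq2. With pseudogene reads added, an alternative chosen after seeing the data like the removal of length and GC trends, RPL36A was 0.231, RPL7 0.13, RPS27A 0.007 and RPS7 0.055. Of 36 named genes, 30 kept their direction under those 11 alternatives and 23 when libraries were left out. The values then ran from -0.118 to 0.459 for RPL22L1, -0.041 to 0.311 for RPL26L1, -0.102 to 0.11 for RPL27, -0.167 to 0.035 for RPL36A, -0.186 to 0.32 for RPL39, -0.029 to 0.126 for RPL7L1, -0.035 to 0.183 for RPLP0, -0.017 to 0.186 for RPLP2, -0.406 to 0.054 for RPS26, -0.316 to 0.108 for RPS27A, -0.208 to 0.167 for RPS27L, -0.093 to 0.047 for RPS6 and -0.353 to 0.124 for RPS7. The cause of these turns was not tested. Depth limits genes with few reads most: RPS2, at a mean of 120 reads, had the widest SE of the 83, 0.209.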
